A study of Mus musculus with 19 samples.

Results

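Endothelial and blood-brain barrier genes, 9 in number, were followed through the layers of the mouse primary somatosensory cortex. They are Cldn5, Cdh5 and Pecam1, which hold endothelial cells together, Flt1, Kdr and Tek, which receive vascular growth signals, and Slc2a1, Slco1a4 and Abcb1a, which carry substances across the vessel wall. They were taken by name and not by a cut on their measured values, though earlier results of these data were known. The 9 are among 24130 Ensembl genes with an entry in any library. All 9 had a mean of at least 1 FPKM (fragments per kilobase of gene model, scaled to the mapped fragments of the library) and were among the 13164 genes tested.

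The tissue came from male C57BL/6J mice aged 56 days, with no treatment. Coronal slices were cut by eye into 6 segments from the surface down. A mostly held layers 1 to 3 and B layer 4, the upper and lower parts of layer 5 were C and D, and layers 6 and 6b were E and F. The poly(A) RNA gave 7 libraries. B1 and B2, the pair of libraries of segment B, each pooled 4 littermates, and every other segment had a single library of 8 pooled mice. Per the paper these were the same 8 mice for all segments, so the segments are not independent groups of animals. The difference between animals can therefore be seen only within the difference between B1 and B2 (n = 2), and for the other segments there are no replicates. B1 and B2 also differ as libraries, with inserts of 239 and 193 nt. Litter, dissection and library preparation therefore cannot be told apart in their difference. Dorsal and lateral cortex (12 samples) were not analysed here.

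Capillary endothelial cells of the brain are sealed to each other by tight junctions, so that nutrients, ions and drugs must pass through the cells rather than between them. Claudin-5 is the main sealing protein of these junctions, and transporters in the cell membrane feed glucose in and pump foreign compounds out. The barrier is induced and kept by signals from neighbouring cells, among them VEGF, angiopoietin, Wnt and Norrin, and by pericytes and astrocyte endfeet that wrap the vessel. Vessels of the pia, larger vessels that dive into the cortex and the capillary bed differ in their endothelium, their mural cells and their barrier.

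Depth, estimated from the deposited coverage and FPKM, was lowest for A (31.3 M fragments) and highest for B2 (74.9 M). The segments showed their layer markers, with the highest level of Cux2 in B1 (43.5 FPKM, and 37.9 in A), of Rorb in B2 (22.1), of Fezf2 in C (26.0), and of Foxp2 and Ctgf in F (13.9 and 167). B1 and B2 differed in these markers, with 43.5 and 28.6 FPKM for Cux2, 17.8 and 22.1 for Rorb, and 6.06 and 3.86 for Fezf2. The share of all FPKM held by mitochondrial genes was 21.8% in A, 18.2% in B2 and 5.03% to 9.79% in the other 5 libraries. FPKM are shares of a library, so RNA that is high in 1 library can lower the values of all other genes there. Each trend below is therefore read beside the median of all genes and beside a second scale, the median of ratios. This scale sets the typical gene equal in all libraries. Its factors were 0.787 in A, 0.924 in B1, 0.941 in B2 and 1.05 to 1.15 in C to F. Scaling without mitochondrial genes gave factors of 0.987 in A, 0.928 in B1, 0.908 in B2 and 1.003 to 1.11 in C to F. The part of the mitochondrial share in the median-of-ratios factors was not tested. In a bulk library, fewer endothelial cells and less RNA per endothelial cell cannot be told apart.

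Of the 9 genes, 2 passed the test of a trend with segment position. Cldn5 fell and Kdr rose from A to F, and the other 7 did not pass. The test was the limma F-test of a linear and a quadratic term on log2(FPKM + 0.1), with Benjamini-Hochberg adjustment over all 13164 genes and a threshold of 0.05. Among all genes tested, 35.3% passed with a rising and 8.36% with a falling slope, against 11.1% of the 9 genes (1 gene) each way. The median slope was 0.05 log2 units per segment for the 9 genes and 0.09 for all genes, which comes to 0.47 log2 units from A to F for the median gene. By median of ratios the median slope of all genes was -0.0015, 17.6% of the genes passed with a rising and 15.5% with a falling slope, and of the 9 genes Cldn5 and Flt1 fell and none rose.

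Over the 7 libraries most of the 9 genes varied less than the median gene. The ratio of the highest to the lowest library ran from 1.40 for Abcb1a to 3.22 for Cldn5, against a median of 2.37 over all genes tested, and Cldn5 was the 1 gene of the 9 above that median. On the other scale the median was 2.16, and Cldn5 (4.56) and Flt1 (2.24) lay above it. The lowest library was A for 7 of the 9 genes, as it was for 49.0% of all genes tested. By median of ratios A was the lowest library for Kdr and Tek only, and F was the lowest for Slco1a4, Flt1, Pecam1, Cdh5 and Abcb1a, against 34.6% (A) and 16.2% (F) of all genes.

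**Figure D1:**
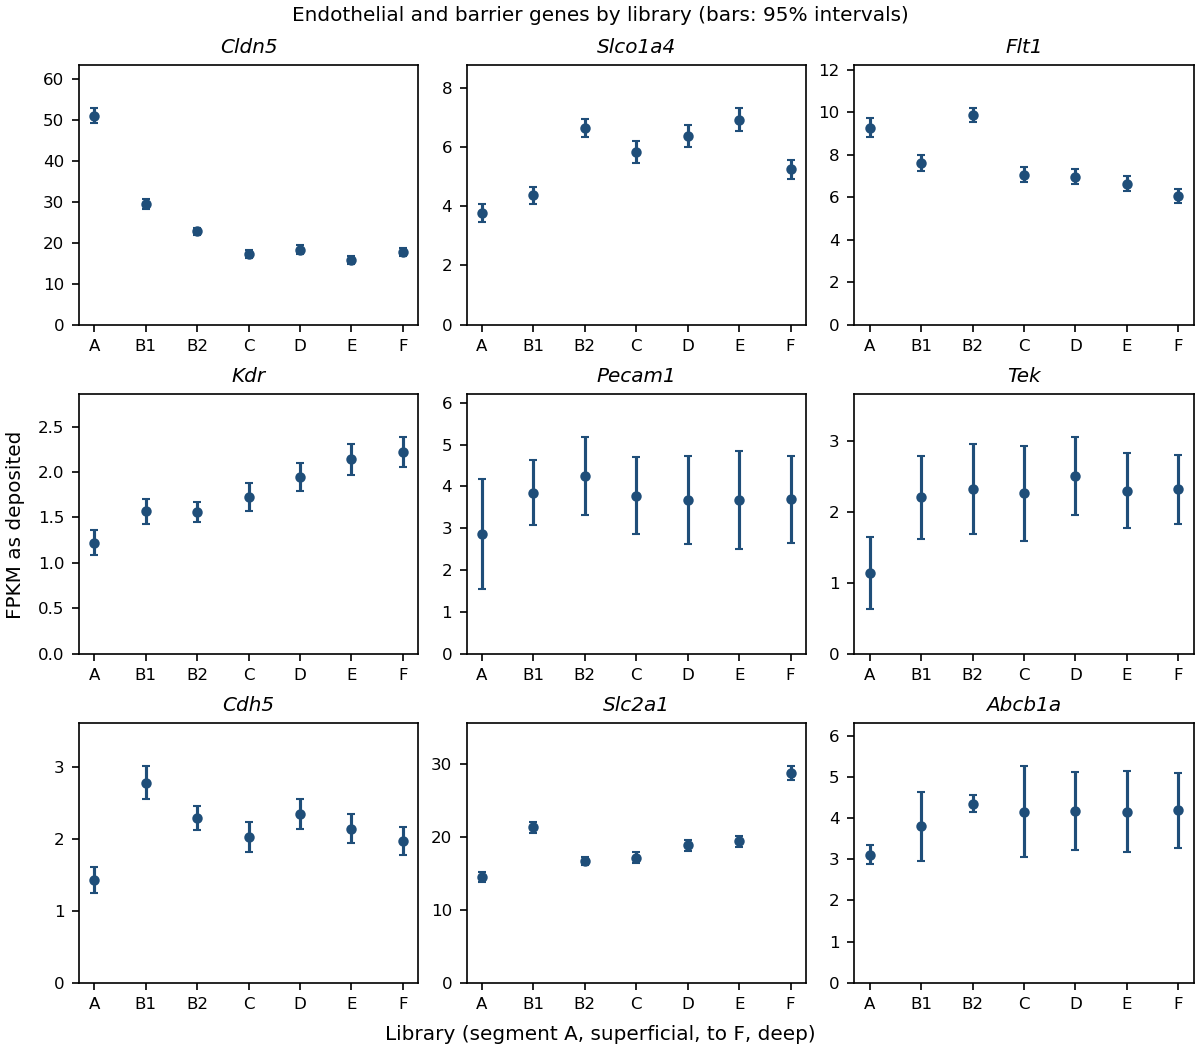
FPKM of the 9 genes (vertical axes, each from 0) in the 7 libraries (horizontal axes), with points for the deposited values and bars for their 95% intervals within a library. Cldn5 stands at 51.0 FPKM in A and at 15.8 to 29.5 elsewhere, Slc2a1 is highest in F at 28.7, and Pecam1, Tek and most Abcb1a values have wide intervals.

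Cldn5 (ENSMUSG00000041378, mm9 chr16:18776940-18778353, a gene with a single exon) encodes claudin-5. Its level was 51.0 FPKM in A, 29.5 and 22.8 in B1 and B2, and 17.3, 18.3, 15.8 and 17.7 in C, D, E and F. A lay above all other libraries, both B libraries lay above the 4 deep ones, and C, D and F overlapped in their intervals. The level in A was 2.87-fold that in F. The slope was -0.26 ± 0.08 log2 units per segment (standard error, adjusted p = 0.0082).

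The call on Cldn5 rests on library A. Without A the slope was -0.15 and the adjusted p 0.13, and with the linear term alone the adjusted p was 0.059. Cldn5 is also rich in G and C (60.5% of its longest transcript), and a correction for the relation of FPKM to GC content within each library took the slope from -0.26 to -0.13 (adjusted p = 0.035). After that correction its level was 34.8 FPKM in A, 22.2 in B1, 24.95 in B2 and 19.2 to 21.2 in C to F. The gradient was steeper by median of ratios, with a slope of -0.36 (adjusted p = 0.0079).

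Many markers of leptomeningeal, blood and smooth muscle cells were highest in A as well, as were 21.6% of all genes tested and 13 of 26 other endothelial genes listed. Of 12 leptomeningeal fibroblast markers 11 were highest in A, with a summed level of 48.5 FPKM there against 5.27 to 8.71 in the other libraries, where Slc47a1 (B1 to F) and Col3a1 (C) had no entry and were taken as 0. Of 6 red blood cell genes listed 5 were highest in A, with 939 FPKM against 101 to 149. Of 16 pericyte and smooth muscle genes 10 were, with 147 FPKM against 55.9 to 78.9, and Tagln had no entry in C to F. Within this list Pdgfrb and Rgs5 were instead lowest in A as deposited, with 1.97 and 14.8 FPKM. Among those highest in A were Vtn (63.8 FPKM), Ndufa4l2 (4.91) and Higd1b (3.99), so no level of pericytes in A is read from Pdgfrb and Rgs5. The part of these cells in the level of Cldn5 in A was not tested. The ratio of Cldn5 to Cdh5 within a library, which no scaling moves, was 35.9 in A, 10.6 in B1, 9.99 in B2 and 7.39 to 9.01 in C to F. Their GC contents differ (60.5% and 52.2%), and after GC correction the ratio was 26.8 in A, 8.33 in B1, 10.8 in B2 and 8.64 to 10.01 in C to F, so that B and the deep segments overlapped.

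Cdh5 (ENSMUSG00000031871, mm9 chr8:106625599-106668401) encodes VE-cadherin, the adherens junction protein of endothelium. Its level was 1.42 FPKM in A, 2.78 and 2.29 in B1 and B2, and 2.02, 2.35, 2.14 and 1.97 in C, D, E and F. As deposited, A lay below all other libraries by intervals that did not overlap, and C to F overlapped with each other. By median of ratios the level was 1.81 in A and 1.72 in F, by intervals that overlapped. The gene did not pass the trend test, with a slope of 0.03 ± 0.07 (adjusted p = 0.33), and that slope was negative on the median-of-ratios scale (-0.07), with mitochondrial genes left out of the scaling (-0.02) and without A (-0.07).

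Pecam1 (ENSMUSG00000020717, mm9 chr11:106515531-106576579) encodes CD31, an adhesion and signalling receptor at endothelial contacts that is also found on platelets and leukocytes. Its level was 2.87 FPKM in A, 3.85 and 4.24 in B1 and B2, and 3.78, 3.68, 3.67 and 3.69 in C, D, E and F. The intervals of all 7 libraries overlapped, and they spanned 40.9% to 91.8% of the value. The slope was 0.02 ± 0.05 (adjusted p = 0.53).

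Pecam1 has 2 main transcripts that share most of their sequence. They differ in coding sequence by an exon of 57 bases (19 codons) near the end of the cytoplasmic tail, which holds an immunoreceptor tyrosine-based inhibitory motif and lies in GRCm38 at chr11:106671742-106671798, on the minus strand. The exon is printed because its presence is what separates the 2 forms, with the exon in capitals and 15 bases of transcript on each side.
ENSMUST00000080853: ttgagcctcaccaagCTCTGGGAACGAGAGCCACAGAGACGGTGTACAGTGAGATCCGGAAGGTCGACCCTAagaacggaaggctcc

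The form with the exon (716 codons) held 44.5% of the Pecam1 transcripts in A, 30.9% and 40.8% in B1 and B2, and 59.2%, 48.7%, 37.0% and 38.2% in C, D, E and F. The form without it (697 codons) held 55.5%, 64.6%, 59.2%, 40.8%, 51.3%, 54.8% and 53.8% in the same order. In B1 the form with the exon was at 1.19 FPKM (95% interval 0.67 to 1.70) and the form without it at 2.49 (1.95 to 3.02), and in the other 6 libraries the intervals of the 2 forms overlapped. No order of the segments by this exon could be read at this depth.

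Flt1 (ENSMUSG00000029648, mm9 chr5:148373180-148537587) encodes VEGF receptor 1, which binds VEGF-A, VEGF-B and placental growth factor. Its level was 9.28 FPKM in A, 7.61 and 9.85 in B1 and B2, and 7.06, 6.96, 6.62 and 6.05 in C, D, E and F. A and B2 lay above the 4 deep libraries, and C, D and E overlapped. As deposited, the slope of -0.12 ± 0.05 did not pass (adjusted p = 0.11). By median of ratios, where the levels ran from 11.8 in A to 5.27 in F, the slope of -0.22 passed (adjusted p = 0.019).

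Flt1 also makes a short transcript that reads on into an intron after exon 13 and ends there, which gives a soluble receptor without the membrane anchor and the kinase. Soluble VEGF receptor 1 binds VEGF without signalling. The long form (ENSMUST00000031653) has 30 exons and 1333 codons and the short form (ENSMUST00000110529) 13 exons and 688 codons. The coding end that only the short form has (92 bases before its stop codon, GRCm38 chr5:147639133-147639224, minus strand) is printed in capitals, after 15 bases that both forms hold.
ENSMUST00000110529: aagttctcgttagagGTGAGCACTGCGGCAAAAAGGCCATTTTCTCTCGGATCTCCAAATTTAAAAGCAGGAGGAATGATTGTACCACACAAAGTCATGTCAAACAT

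The short form held 34.3% of the Flt1 transcripts in A, 33.0% and 36.7% in B1 and B2, and 32.7%, 34.9%, 31.8% and 30.2% in C, D, E and F. The shares spanned 6.54 percentage points over the 7 libraries, and B1 and B2 alone were 3.69 points apart. The short form was at 3.18 FPKM in A and 1.82 in F, and the long form at 6.09 and 4.22. Both forms were thus lower in F than in A by intervals that did not overlap.

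Kdr (ENSMUSG00000062960, mm9 chr5:76328852-76374483) encodes VEGF receptor 2, the main signalling receptor for VEGF-A. Its level was 1.22 FPKM in A, 1.57 and 1.56 in B1 and B2, and 1.73, 1.94, 2.14 and 2.22 in C, D, E and F. The values increased from segment to segment, although A was the only segment whose intervals lay apart from those of its neighbour. The level in F was 1.81-fold that in A, and B1 and B2 differed by less than 0.01 log2 units. The slope was 0.15 ± 0.04 (adjusted p = 0.026).

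The call on Kdr depends on the scale. By median of ratios the slope was 0.06 (adjusted p = 0.34), and with mitochondrial genes left out of the scaling it was 0.11 (adjusted p = 0.11). The call was lost when any 1 of A, C, D, E or F was left out (adjusted p from 0.072 without C to 0.12 without A) and kept without B1 or without B2. Estimated from depth and length, 226 fragments supported Kdr in A.

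Flt1 had a negative and Kdr a positive slope as deposited, by median of ratios and after GC correction. The ratio of Flt1 to Kdr within a library, which is free of the scaling, was 7.59 in A, 4.85 and 6.29 in B1 and B2, and 4.09, 3.58, 3.10 and 2.73 in C, D, E and F. It was lower in each deeper segment, with both B libraries between A and C and was 1.30-fold higher in B2 than in B1 and 1.498-fold higher in C than in F. The GC content of the longest transcripts was 50.5% for Flt1 and 49.4% for Kdr. This ratio was chosen after the values were seen, and it was not tested.

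Tek (ENSMUSG00000006386, mm9 chr4:94405991-94541630) encodes Tie2, the receptor of the angiopoietins. Its level was 1.14 FPKM in A, 2.21 and 2.33 in B1 and B2, and 2.26, 2.50, 2.30 and 2.32 in C, D, E and F. B2, D, E and F lay above A by intervals that did not overlap, and B1 to F overlapped with each other. The slope was 0.12 ± 0.07 and did not pass (adjusted p = 0.062). Without A the slope was 0.012 (adjusted p = 0.90), and by median of ratios it was 0.03 (adjusted p = 0.26). The trend passed without B1 (adjusted p = 0.037) and with B1 and B2 averaged to 1 library (adjusted p = 0.039).

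Tek has 2 listed transcripts, and the one with the higher estimate was not the same in A and in F. In A their intervals overlapped (0.54 to 1.23 FPKM for ENSMUST00000102798 and 0 to 0.62 for ENSMUST00000071168). ENSMUST00000102798 (1123 codons) held 77.6% of the Tek transcripts in A, 64.0% and 78.9% in B1 and B2, and 69.8%, 59.9%, 37.1% and 34.3% in C, D, E and F. ENSMUST00000071168 (1122 codons) was at 0.26 FPKM in A (95% interval from 0 to 0.62), 0.49 in B2 (0.04 to 0.95), 1.45 in E (1.07 to 1.83) and, highest, 1.53 in F (1.17 to 1.88). In F its interval lay above that of the other form (0.49 to 1.10), and in B2 it lay below (1.41 to 2.26). The shares in B1 and B2 differed by 14.9 percentage points, and those in D and F by 25.6.

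The 2 Tek models share nearly all of their sequence, so few reads separate them. They differ by 3 coding bases at an exon end (GRCm38 chr4:94851875-94851877, plus strand), printed in capitals with 15 bases of transcript on each side, and ENSMUST00000102798 is longer by 218 nt at the 5′ end and by 257 nt at the 3′ end.
ENSMUST00000102798: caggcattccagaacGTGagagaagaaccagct

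Reads were 50 nt long in mapping, but in a part of the sequencing of F they were 75 nt. The part of read length in the transcript shares of F was not tested, for Tek or for Abcb1a below.

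**Figure D2:**
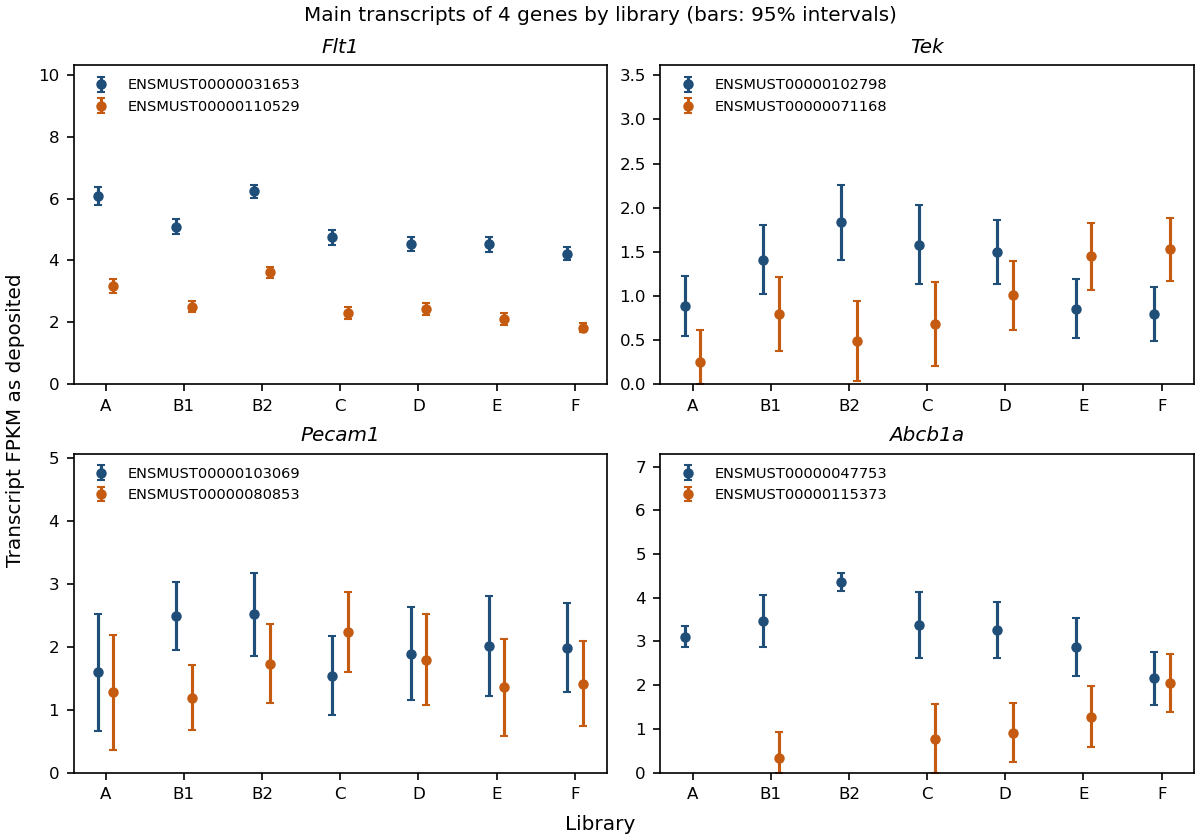
FPKM of the main transcripts of Flt1, Tek, Pecam1 and Abcb1a (vertical axes) in the 7 libraries (horizontal axes), with 95% intervals as bars and no point where a library has no entry for the transcript. Both Flt1 forms are lower in F than in A, ENSMUST00000071168 of Tek goes from 0.26 FPKM in A to 1.53 in F, and the Pecam1 intervals overlap in every library but B1.

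Slc2a1 (ENSMUSG00000028645, mm9 chr4:118781316-118809935) encodes GLUT1, the glucose carrier of the barrier, which astrocytes also make. Its level was 14.5 FPKM in A, 21.3 and 16.7 in B1 and B2, and 17.1, 18.8, 19.4 and 28.7 in C, D, E and F. A lay below and F above all other libraries by intervals that did not overlap. The mean of B was 19.0 ± 3.23 (SD, n = 2). B1 and B2 were 4.57 FPKM apart, and E and F were 9.36 FPKM apart. With a slope of 0.13 ± 0.06, Slc2a1 did not pass (adjusted p = 0.14). Without F the slope was 0.07 (adjusted p = 0.57) and by median of ratios 0.04 (adjusted p = 0.41), whereas without B1 the trend passed (adjusted p = 0.026).

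In F, where Slc2a1 peaked, 4 of 12 astrocyte genes also had their highest level, as did 30.0% of all genes tested. Gfap was at 126 FPKM in F and at 4.42 to 34.4 in the other libraries, and Aqp4, the water channel of the endfeet, at 27.7 against 4.95 to 17.0. The summed level of the 12 astrocyte genes was 1143 FPKM in F against 845 to 1111 elsewhere. Gfap made up 126 FPKM of this sum in F and 5.81 in B1, the library with the next highest sum. The genes of the list other than those 4 were highest elsewhere, such as Aldh1l1 (21.0 in F, 32.7 in B1), Aldoc (296 in F, 421 in A) and Gjb6 (11.1 in F, 20.4 in C). The part of astrocyte RNA in the Slc2a1 peak was not tested.

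Slco1a4 (ENSMUSG00000030237, mm9 chr6:141753961-141794041) encodes OATP1A4, a carrier of organic anions and bile acids on both faces of the barrier. Its level was 3.77 FPKM in A, 4.37 and 6.64 in B1 and B2, and 5.84, 6.37, 6.91 and 5.24 in C, D, E and F. F lay below E by intervals that did not overlap, and the intervals of B2, D and E overlapped. B1 and B2 were on opposite sides of C, with a B mean of 5.50 ± 1.61 (SD, n = 2). B1 and B2 were 2.275 FPKM apart, more than E and F, which were 1.67 FPKM apart. The slope was 0.09 ± 0.07 (adjusted p = 0.13), and it was -0.0040 on the median-of-ratios scale. After GC correction the slope was 0.0042 (adjusted p = 0.68), and without A it was 0.03 (adjusted p = 0.58). The trend passed in 1 of 20 other settings, with B1 and B2 averaged to 1 library (adjusted p = 0.037).

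Abcb1a (ENSMUSG00000040584, mm9 chr5:8660077-8748575) encodes a P-glycoprotein, the drug efflux pump of the barrier. Its level was 3.11 FPKM in A, 3.80 and 4.36 in B1 and B2, and 4.16, 4.18, 4.16 and 4.19 in C, D, E and F. C to F differed by less than 0.1 FPKM, and A overlapped with every library but B2. The slope was 0.05 ± 0.05 (adjusted p = 0.31) and -0.04 on the median-of-ratios scale.

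The second Abcb1a transcript, ENSMUST00000115373, had no entry in A and B2. It was at 0.33 FPKM in B1, at 0.77, 0.92 and 1.28 in C, D and E, and at 2.04 in F. In F it held 48.6% of the Abcb1a transcripts, and part of the reads there were longer. Its intervals were 0 to 0.94 in B1, 0 to 1.57 in C and 0.24 to 1.59 in D. They were 0.58 to 1.99 in E and 1.38 to 2.70 in F. The interval of F thus overlapped with those of C, D and E and lay above that of B1. The transcript models used here held no entry for this transcript. The main form, ENSMUST00000047753, was at 3.11 in A and 2.15 in F, by intervals of 2.88 to 3.35 and 1.55 to 2.76. In A and B2, where all reads went to 1 form, the interval of the gene spanned 15.2% and 9.24% of its value, against 43.8% to 53.1% in the other libraries. Abcb1a shares sequence with its neighbour Abcb1b, so part of their reads may be split between them.

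**Figure D3:**
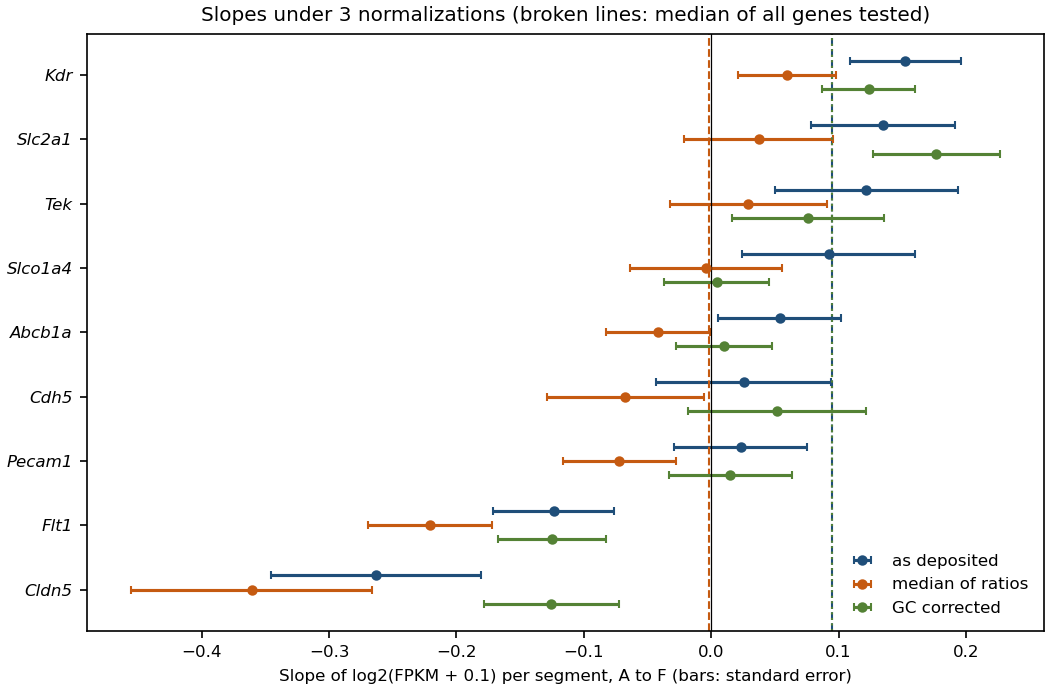
Slope of log2(FPKM + 0.1) per segment for each of the 9 genes, with its standard error as bar, as deposited (blue), on the median-of-ratios scale (orange) and after GC correction (green). Broken lines mark the median of all genes tested, 0.09 as deposited and -0.0015 by median of ratios. Cldn5 and Flt1 lie below 0 under all 3, and Kdr, Slc2a1 and Tek above 0 under all 3.

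The 2 libraries of segment B, which differ in litter, insert size, depth and the levels of layer markers, set the scale for single steps. B1 and B2 differed by nonoverlapping 95% intervals in 5 of the 9 genes. Slco1a4 and Flt1 were higher in B2 (all genes, 29.2%), and Cldn5, Cdh5 and Slc2a1 were lower (all genes, 27.7%). The log2 ratio of B2 to B1 was 0.61 for Slco1a4, 0.37 for Flt1, 0.20 for Abcb1a, 0.14 for Pecam1, 0.08 for Tek, -0.0027 for Kdr, -0.28 for Cdh5, -0.35 for Slc2a1 and -0.37 for Cldn5. Without regard to sign, 4 of the 9 exceeded the median of all genes, 0.31. After GC correction Cldn5 was higher in B2 instead of lower, Slc2a1 stayed lower, and Cdh5 overlapped.

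Of the 45 steps between neighbouring segments (5 for each gene), 10 had intervals that did not overlap, with B1 and B2 required to lie on the same side. From A to B, Kdr, Cdh5 and Slc2a1 were higher (3 of 9, all genes 37.1%) and Cldn5 was lower (all genes 20.0%). From B to C no gene was higher (all genes 24.4%) and Cldn5 was lower (all genes 5.21%). From C to D Slc2a1 was higher (all genes 13.9%) and none was lower (all genes 10.7%). From D to E none was higher (all genes 22.2%) and Cldn5 was lower (all genes 12.8%). From E to F Cldn5 and Slc2a1 were higher (all genes 24.7%) and Slco1a4 was lower (all genes 19.5%).

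Cldn5 and Slc2a1 held 7 of these 10 steps, and Flt1, Pecam1, Tek and Abcb1a none. Nonoverlap depends on the width of the intervals, which was 7.05% to 11.8% of the value for Cldn5 and 6.23% to 9.75% for Slc2a1. For Flt1 the width was 6.58% to 10.7%, for Tek 42.0% to 88.9% and for Pecam1 40.9% to 91.8%. Of all 13164 genes, 7499 differed between B1 and B2, 7517 between A and B, and 3229 to 5814 between the other neighbours. The deposited intervals hold error within a library only. With intervals 2 times as wide, 5 steps were left. These were Cdh5 higher and Cldn5 lower from A to B, Cldn5 lower from B to C, and Slc2a1 higher and Slco1a4 lower from E to F.

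By median of ratios 11 steps had intervals apart. Flt1 was then lower from A to B (all genes 27.3%), from B to C (all genes 10.8%) and from E to F (all genes 22.8%), and Cdh5 and Slc2a1 were lower from B to C. Kdr and Slc2a1 no longer differed from A to B. The wider intervals were applied to the deposited values only. The steps apart under both scales, and as deposited also with the wider intervals, were 5. They were those of Cldn5 from A to B and from B to C, of Cdh5 from A to B, and of Slc2a1 and Slco1a4 from E to F. With the wider intervals B1 and B2 still differed as well, with Slco1a4 and Flt1 higher and Cldn5 and Slc2a1 lower in B2.

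Among other endothelial genes more passed the trend test with a negative than with a positive slope. Of 26 listed, 20 were tested, and 7 passed with a negative slope (35.0%, all genes 8.36%) and 1 with a positive slope (5.0%, all genes 35.3%). Their median slope was -0.10 against 0.09 over all genes. On the median-of-ratios scale 12 passed with a negative slope (all genes 15.5%) and 1 with a positive slope (all genes 17.6%). A gene may also pass on the quadratic term, so the sign of the slope need not describe its whole profile. Vwf, von Willebrand factor, which larger vessels make more than capillaries, had the lowest slope (-0.49, adjusted p = 0.0023) with 14.0 FPKM in A and 0.85 to 2.83 elsewhere. Itm2a had the highest (0.27, adjusted p = 0.0069), from 6.54 in A to 17.8 in E. Tie1, the partner receptor of Tie2, fell (-0.16, adjusted p = 0.041) from 2.81 FPKM in A to 1.45 in F.

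Of 11 other junction genes listed, 6 were tested. With a positive slope 4 passed (all genes 35.3%) and with a negative slope none, with a median slope of 0.20. On the median-of-ratios scale 2 passed, both with a positive slope (all genes 17.6%). Tjp1 (ZO-1), the scaffold that ties claudins to the cytoskeleton, rose from 10.4 FPKM in A to 27.2 in F (slope 0.21, adjusted p = 0.029). Ocln, occludin, rose from 0.68 to 1.59 (0.19, adjusted p = 0.0135). Neither passed by median of ratios (adjusted p = 0.17 for Tjp1 and 0.088 for Ocln). Jam2 had the lowest slope (0.06, adjusted p = 0.094). These junction genes are not limited to endothelium.

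Of 20 further genes listed for transport at the barrier, 18 were tested. Not all of them encode carriers or pumps: Tfrc, Insr and Lrp8 encode receptors, and Cav1 and Plvap are not transporters either. Tfrc, Insr and Lrp8 were among the genes below that passed with a positive slope, and Plvap among those with a negative one. With a positive slope 7 passed (38.9%, all genes 35.3%) and with a negative slope 3 (16.7%, all genes 8.36%), with a median slope of 0.13. On the median-of-ratios scale 3 passed with a positive (all genes 17.6%) and 4 with a negative slope (all genes 15.5%). Abcg2, the second large efflux pump of the mouse barrier, rose from 3.12 FPKM in A to 6.94 in F (slope 0.27, adjusted p = 0.013) but did not pass by median of ratios (adjusted p = 0.065). Abcb1b, the paralog of Abcb1a, was at 0.92 in A and 2.02 to 2.47 elsewhere and did not pass (0.17, adjusted p = 0.067). Slco1c1, the thyroxine carrier related to Slco1a4, did not pass (0.02, adjusted p = 0.31). Slc16a1, the lactate carrier MCT1, had the highest slope (0.39, adjusted p = 0.0058), from 2.51 in A to 12.7 in F. Slc22a8 had the lowest (-0.24, adjusted p = 0.048), with 5.88 in A and 1.57 to 2.38 elsewhere. The libraries are of bulk tissue, so the levels of these transport genes are not those of endothelium alone. The part of other cells in them was not tested.

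Among 24 genes listed for endothelial growth signals, 17 were tested. The list holds ligands, receptors, coreceptors and other genes of these signals. With a positive slope 2 passed (11.8%, all genes 35.3%) and with a negative slope 1 (5.88%, all genes 8.36%), with a median slope of 0.02. The latter was Nrp2, a further neuropilin, whose slope was near 0 (-0.0085) and whose profile was U-shaped, with 2.66 FPKM in A, 0.67 in D and 2.92 in F. Nrp1, the coreceptor of Kdr for VEGF that neurons also carry, had the highest slope (0.50, adjusted p = 0.0068), with 2.36 to 2.50 FPKM in A and B and 5.79 to 10.6 in C to F. Vegfa did not pass (0.075, adjusted p = 0.21), with 5.88 in A and 9.47 to 14.0 elsewhere, and Vegfb had the lowest slope (-0.13, adjusted p = 0.071). The ligands of Tek were low. Angpt1 had a mean of 0.47 FPKM, below the limit for the test, with 1.45 in F and 0.75 in E against 0.14 to 0.37 elsewhere, and Angpt2 was listed at 0.18 in A and had no entry in the other libraries. On the other scale 1 growth gene passed with a positive and 2 with a negative slope.

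Genes of the cells around the vessels were counted in the same way, beside 35.3% of all genes with a positive and 8.36% with a negative slope (17.6% and 15.5% by median of ratios). Of 16 pericyte and smooth muscle genes, 10 were tested, and 6 passed with a negative and 1 with a positive slope, with a median slope of -0.25. The other scale gave 7 with a negative slope and none with a positive one. Tagln, of smooth muscle, was at 14.7 FPKM in A, 4.09 in B1 and 3.22 in B2, and had no entry in C to F. Missing entries were taken as 0 in the fit and may be failed estimates, so no change with depth is read from it. Tagln is nevertheless among the 6 and the 7 genes counted with a negative slope, and it enters the median slope. Cspg4 (NG2), which oligodendrocyte precursors also make, passed with a positive slope (0.24, adjusted p = 0.037) as deposited and did not by median of ratios (adjusted p = 0.14).

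All 5 leptomeningeal genes tested passed with a negative slope under both scales, from Fmod (-0.53, adjusted p = 0.013) to Igf2 (-0.24, adjusted p = 0.040). Of 5 red blood cell genes tested, 2 passed with a negative slope as deposited and 4 by median of ratios, with slopes from -0.40 for Hba-a1 (adjusted p = 0.052) to -0.20 for Alas2 (adjusted p = 0.034), and the near-identical globin genes may share reads. Of 12 astrocyte genes 3 passed with a positive and 1 with a negative slope (2 and 2 by median of ratios), from Aldoc (-0.11, adjusted p = 0.13) to Gfap (0.52, adjusted p = 0.0025). The astrocyte gene with a negative slope was Gjb6, a gap junction gene, which was highest in the middle of the cortex, with 10.6 FPKM in A, 20.4 in C and 11.1 in F. Of 12 microglia genes 7 passed with a positive and 1 with a negative slope (5 and 2 by median of ratios), from Aif1 (-0.06, adjusted p = 0.089) to P2ry12 (0.47, adjusted p = 0.0026). The microglia gene with a negative slope was C1qb, with 35.0 FPKM in A, 19.3 in D and 29.1 in F.

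**Figure D4:**
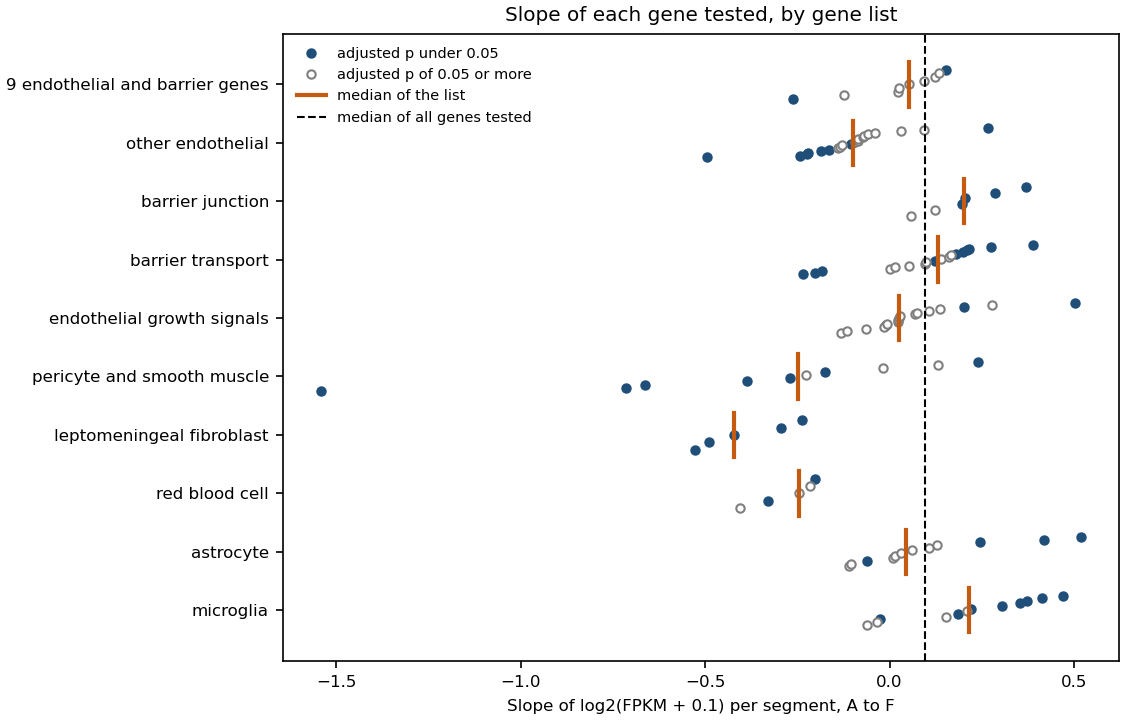
Slope of log2(FPKM + 0.1) per segment (horizontal axis) of each gene tested, by list (rows), filled where the adjusted p is under 0.05, with the median of each list in orange and that of all genes tested as a broken line at 0.09. The 9 endothelial and barrier genes lie from -0.26 to 0.15, the leptomeningeal genes all lie to the left of 0, and the junction genes to the right.

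The 9 genes did not share a profile. Of their 36 pairs, 22 had a positive Pearson correlation of log2(FPKM + 0.1) over the 7 libraries, with a median r of 0.40, and 24 with a median of 0.17 on the median-of-ratios scale. As deposited, r among Pecam1, Tek, Cdh5 and Abcb1a ran from 0.64 for Cdh5 with Abcb1a to 0.95 for Tek with Abcb1a. By median of ratios Tek with Abcb1a was at 0.40 and Pecam1 with Tek at 0.38. The remaining pairs of this group then ran from 0.63 for Cdh5 with Abcb1a to 0.95 for Pecam1 with Abcb1a. As deposited, Cldn5 had negative values with 7 of the other 8 genes, down to -0.91 with Abcb1a, and a positive one with Flt1 (0.69). By median of ratios Cldn5 had positive values with Flt1 (0.87), Pecam1 (0.44), Abcb1a (0.34), Cdh5 (0.17) and Slc2a1 (0.06). Its values with Kdr (-0.78), Tek (-0.60) and Slco1a4 (-0.36) stayed negative on that scale. Flt1 and Kdr had an r of -0.86 by median of ratios. The points of each pair are the same 7 libraries with the same scaling and depth, and library A is far from the others in many of them.

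The genes outside the 9 whose profiles were most like the mean of the 9 standardised profiles were Zfp120 (r = 0.98), Sesn1 (0.97), Sestd1 (0.97), Sdf4 (0.97), Ginm1 (0.97) and Lrrc57 (0.97), over the 7 libraries. All 6 were lowest in A, with 7.43 FPKM in A and 12.6 to 15.8 elsewhere for Sesn1. Of the 9 genes themselves, Tek (0.96), Pecam1 (0.95) and Abcb1a (0.94) were closest to that mean, and Cldn5 (-0.77) and Flt1 (-0.33) ran against it. Each of the 9 is itself part of that mean, which raises its r. The profiles were compared as deposited only. On that scale A was the lowest library for 7 of the 9 genes and for 49.0% of all genes.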

How the data were processed

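RNA from 7 libraries of S1 was analysed. Per the submitters' processing notes, reads were mapped to mm9 with TopHat 1.0.13 and quantified with Cufflinks 0.8.3. The authors deposited FPKM of Ensembl release 57 genes and transcripts, with 95% intervals, scaled for model length and mapped fragments. A deposited fraction per transcript gives its share within a locus and was not used for the shares, and the deposited signal (coverage) was used only to estimate depth, with 2 ends of 50 nt per fragment (too high for F, where part of the reads had 75 nt). Entries missing in a library were set to 0. The tables hold no counts and the intervals hold no variation between mice.

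Identifiers were matched to symbols for 22021 of 24130 genes. GENCODE M21 (GRCm38) gave GC content, transcript models and the sequences printed, and positions of genes are those of mm9. Genes that averaged 1 FPKM or more were fitted with limma 3.58.1 in R 4.3.3 on log2(FPKM + 0.1) with segment position (1 to 6) as a linear and a quadratic term. The slope, its standard error and its direction came from a fit with the linear term alone. Folds on this scale are understated for low genes. The fit was tested on simulated data. Neighbouring segments and B1 and B2 were compared by nonoverlap of the deposited intervals, with no p-value. Isoform shares are shares of the summed transcript FPKM of a gene. The GC correction removed the running median over 501 genes of similar GC content in each library.

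The 9 genes and the lists were chosen with earlier results of these data known. Genes named beside the 9 are those with the lowest and highest slope of each list, direct partners and paralogs, and the 6 most alike in profile, except that 1 gene the rule would name is not reported here. Gfap, Aqp4, Nrp2, Gjb6, C1qb and the ratios were added after their values were seen. Further genes were named outside this rule. They are the layer markers, Pdgfrb, Rgs5, Vtn, Ndufa4l2, Higd1b, Slc47a1, Col3a1, Aldh1l1, Tfrc, Insr, Lrp8, Cav1 and Plvap. Alternatives varied the pseudocount, the filter, the scale, the GC correction, the B libraries, the terms of the model and each library, and 1 on the variance prior was chosen after seeing the data.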

Additional observations from a re-analysis of the deposited data

How the results depend on the processing

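Under other settings the count of the 9 genes that passed the trend test (2) was 1 with a pseudocount of 1, with scaling without mitochondrial genes and with the linear term alone, 4 with B1 and B2 averaged to 1 library, and 0 with 6 segments as a factor, which leaves 1 residual degree of freedom. It was 1 with a variance prior that follows the mean level, chosen after seeing the data. With 1 library left out it ran from 0 (without A) to 4 (without B1). The count over all genes, 5749, was 2486 with the linear term alone and 52 with 6 segments as a factor, and with 1 library left out it ran from 1686 (without A) to 7933 (without B1). The share of rising slopes among all calls was 80.8% as deposited, 70.9% with scaling without mitochondrial genes and 53.2% by median of ratios. Slopes changed sign by median of ratios for Slco1a4 (-0.0040), Pecam1 (-0.072), Cdh5 (-0.067) and Abcb1a (-0.042), with scaling without mitochondrial genes for Pecam1 (-0.022) and Cdh5 (-0.018), and without A for Pecam1 (-0.035) and Cdh5 (-0.069), none of which had passed. With 1 library left out, the slope of Pecam1 ran from -0.035 to 0.043 and that of Cdh5 from -0.069 to 0.072. The 10 steps between neighbours became 5 with intervals 2 times as wide, and 14 or 15 with B1 or B2 as the only B library. The cause of these changes was not tested. The segments came from the same mice, but the mice were pooled before sequencing, so no paired analysis by animal was possible.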
